A study of Mus musculus with 6 samples.

Results

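Regions called accessible after 6 h of BRM014, but neither after 30 h of BRM014 nor in DMSO-treated cells, numbered 770 of the 25922 regions of the 6 h list. They are called 6 h-only regions here. A region was a member if it overlapped no region of the 30 h list and no region of the DMSO list by as little as 1 bp, after overlapping entries within each list had been merged. The members were thus chosen by measured values, namely the absence of an overlapping call in the 30 h and DMSO lists, and their share of 2.97% is a description of that choice. The 3 lists together held 106654 regions. Accessibility had been measured by ATAC-seq in wild-type NMuMG cells, an established epithelial line from normal mouse mammary gland, in 3 groups of 2 biological replicates. The groups received BRM014 for 6 h, BRM014 for 30 h, or the vehicle DMSO. The DMSO list carries 30 h in its name and the sample labels give no time for it, so the 6 h cells had no vehicle list of their own time. The extraction protocol in the labels also mentions TGFβ, which no sample label carries. Each list was made by the authors from both replicates of its group, so there were no replicate values and no test between treatments was possible.

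ATAC-seq uses the Tn5 transposase to insert sequencing adapters where DNA is not wrapped in nucleosomes. SWI/SNF complexes are ATP-driven machines that slide or evict nucleosomes, in particular at enhancers, and BRM014 blocks their ATPase subunits, Brg1 and Brm. Sites that depend on these complexes tend to close when the ATPases are blocked, whereas the regions described here are calls found at 6 h of the inhibitor alone. A region that is absent from a list was not called there, and this does not show that it was closed. The lists are on the mouse build mm9. The genome sequence and gene models of mm9 were not used here, so regions are named by position and no gene is assigned to them.

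The lists differed in length and depth. The 6 h list held 25922 regions, the 30 h list 38422 and the DMSO list 42310. The lowest background recovered from a list, taken as its genome average, was 2.12 reads for the 6 h list, 2.72 for the 30 h list and 3.37 for the DMSO list. By this measure, relative to DMSO, depth was 63.0% at 6 h and 80.7% at 30 h. Read totals were not analysed here. Ranges in parentheses after a share are 95% Wilson intervals, for counting error alone, as if regions were independent of each other.

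The 6 h-only regions were few beside the regions peculiar to the other lists. In the 6 h list 2.97% of regions were shared with neither other list (2.77 to 3.18%), in the 30 h list 5736 regions or 14.9% (14.6 to 15.3%), and in the DMSO list 10040 or 23.7% (23.3 to 24.1%). The order depended on list length. With the 25922 strongest regions of every list by -log10 q, the share was 12.0% at 6 h, 9.13% at 30 h and 14.9% in DMSO, so that the 6 h share then lay above the 30 h share. This cut keeps the whole 6 h list and drops only weak 30 h and DMSO regions. By construction it takes overlapping calls from 6 h regions, and 3100 of them then counted as 6 h-only. Among 6 h regions at the highest deposited score of 1000, the share called in neither full list was 0.182% (27 of 14832). Without a DMSO region, whatever the 30 h list held, were 7.42% of 6 h regions, and without a 30 h region 6.87%.

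The members were weak and narrow regions. Their median -log10 q, the authors' significance at the summit, was 23.3, with the middle 50% of members between 19.5 and 28.7. The 1153 regions called at 6 h and 30 h but not in DMSO had a median of 27.8, the 1010 called at 6 h and in DMSO but not at 30 h one of 26.7, and the 22989 called in all 3 lists one of 71.4. The authors' fold enrichment, the summit's signal over its local background, had a median of 9.29 in members, 9.94 in the regions new at both times, 9.54 in those shared with DMSO alone and 13.7 in those of all 3 lists. Median widths in the same order were 385, 424, 454 and 690 bp. The 6 h list ranked the median member at percentile 8.91 by -log10 q and at percentile 21.0 by fold enrichment. By comparison, the median region peculiar to the 30 h list stood at percentile 14.6 by -log10 q in its own list, and the median region peculiar to the DMSO list at percentile 20.7. Strength bears on whether a region is called at all, so these values are descriptions and carry no test.

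**Figure D1:**
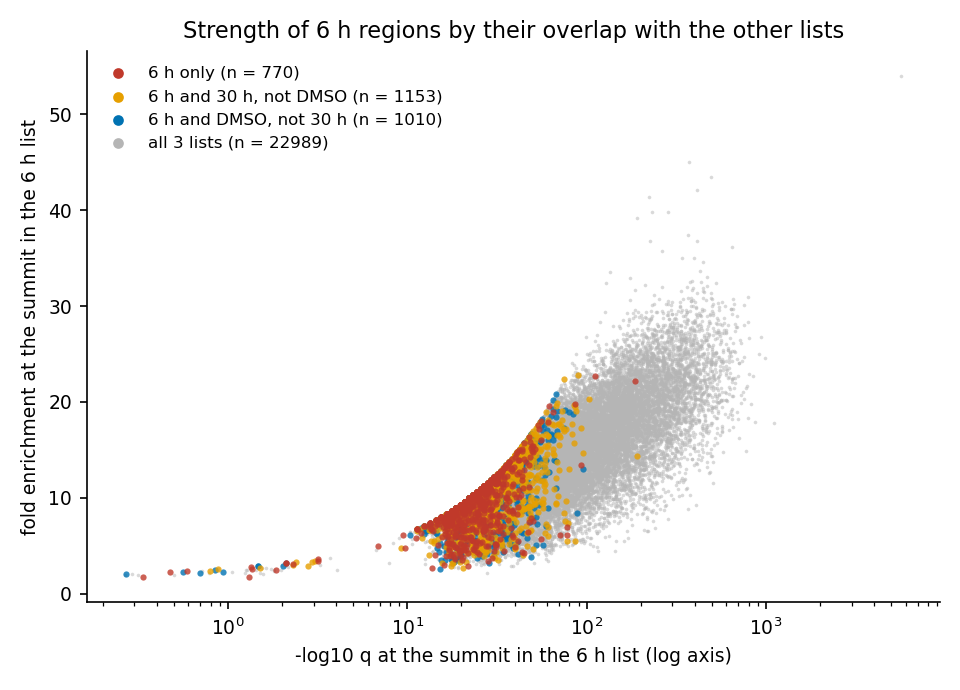
Each point is 1 merged region of the 6 h list, with -log10 q at the summit on a log axis and fold enrichment on a linear axis, coloured by overlap with the other lists. The 770 members of the 6 h-only class cluster at low -log10 q, the middle 50% of them between 19.5 and 28.7, and a few stand apart at up to 186.

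The share of members fell steeply with -log10 q. In the weakest decile of the 6 h list, up to a -log10 q of 24.2, 406 of 2593 regions were members (15.7%, 14.3 to 17.1%). In the next decile there were 227 (8.76%) and in the third 80 (3.09%). The weakest 2 deciles thus held 633 of the 770 members, or 82.2%, and the strongest 5 deciles held 8. The strongest decile held 0 of 2593, which allows a share of up to 0.116% at a limit of 3 counts (Wilson limit 0.148%). By fold enrichment the slope was flatter at the low end: the 3 weakest deciles had 7.37%, 6.87% and 7.21% members, and the strongest 0.0771%, or 2 regions. What the deposited score measures is not stated in the sources used here. It stood at 1000 in 27 members (3.51%), 107 of the regions new at both times (9.28%) and 14640 of the regions in all 3 lists (63.7%). The lowest score was 540, and 207 members scored under 600 (26.9%). The share under 600 was 13.5% in regions new at both times and 17.5% in those shared with DMSO alone. It was 3.26% in regions of all 3 lists. Median scores were 668 in members and 751, 718 and 1000 in these classes in the same order. How near members were to being left out of the list was not tested.

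**Figure D2:**
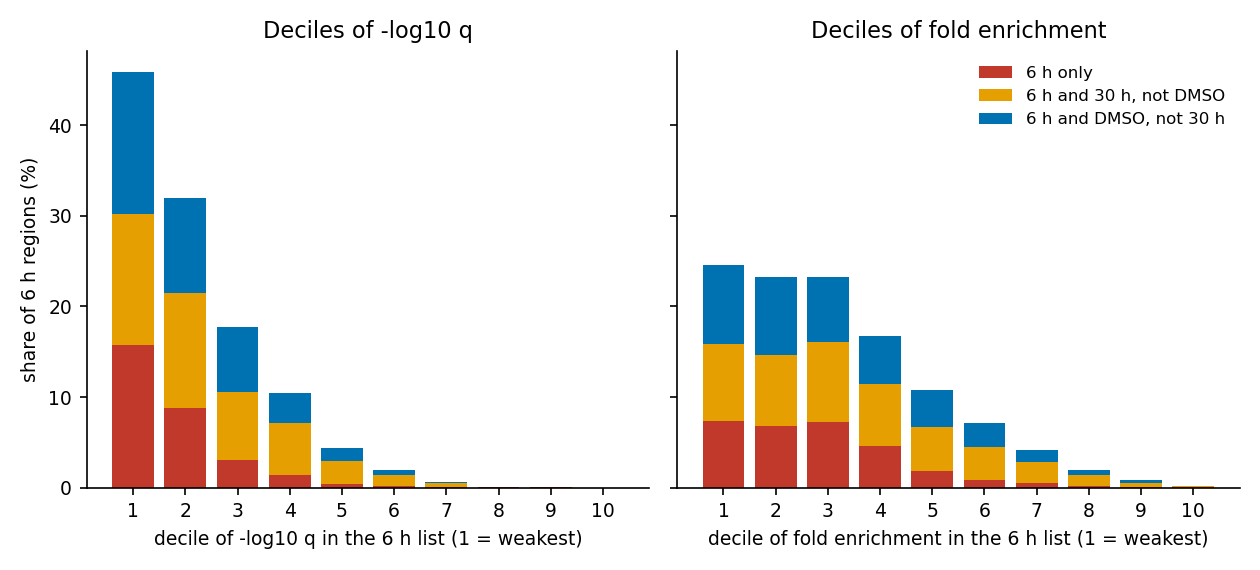
Stacked bars give the share of 6 h regions in each decile of -log10 q (left) and of fold enrichment (right) that were called at 6 h only, at 6 h and 30 h without DMSO, or at 6 h and in DMSO without 30 h. The rest of each decile, not drawn, was called in all 3 lists. The 6 h-only share falls to 0 in the strongest decile of -log10 q and is nearly level over the 3 weakest deciles of fold enrichment.

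Members were simple in shape. Of the 770, 616 had 1 summit (80.0%, 77.0 to 82.7%), 130 had 2 and 24 had at least 3. Among regions new at both times 75.6% had 1 summit (73.1 to 78.0%), among those shared with DMSO alone 70.6% (67.7 to 73.3%), and among those in all 3 lists 41.2% (40.6 to 41.9%). Within the weakest 2 deciles of -log10 q strength was closer, at a median of 21.7 in members and 23.4 in regions new at both times. It was 22.9 in those shared with DMSO alone and 24.9 in regions of all 3 lists. The shares with 1 summit there were 82.0% in members (78.8 to 84.8%) and 76.4% in regions new at both times (73.1 to 79.4%), and these intervals met. The shares were 72.6% in those shared with DMSO alone (69.1 to 75.8%) and 62.8% in regions of all 3 lists (61.1 to 64.5%). The median widths in these deciles were 363, 402, 442 and 493 bp in the same order. With entries under a -log10 q of 5 removed from every list, 88.7% of members had 1 summit. The other classes were not recounted in this way.

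Many members stood on the lowest local background of the list. The local background against which a summit was judged, recovered from its fold enrichment and -log10 p, was at the lowest value of the list in 286 members (37.1%, 33.8 to 40.6%). The same held for 24.7% of regions new at both times (22.3 to 27.3%), 24.5% of those shared with DMSO alone (21.9 to 27.2%) and 3.88% of those in all 3 lists (3.63 to 4.13%). In the weakest 2 deciles of -log10 q the shares were 41.5% in members (37.8 to 45.4%), 28.4% in regions new at both times (25.2 to 31.9%) and 16.2% in regions of all 3 lists (14.9 to 17.5%). A background of at least 10 was found in 66 members (8.57%, 6.79 to 10.8%). The share was 7.81% in regions new at both times (6.39 to 9.50%), 8.91% in those shared with DMSO alone (7.31 to 10.8%) and 28.2% in regions of all 3 lists (27.6 to 28.8%), so the interval for members met those of both classes shared with 1 other list. The median distance to the nearest other 6 h region was 13907 bp in members and 13117 bp in regions new at both times. It was 14890 bp in those shared with DMSO alone and 12682 bp in regions of all 3 lists. These distances are to called regions and do not measure the reads around a summit. Whether a summit's own reads enter its background was not tested.

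Median summit pileup, the number of reads stacked at the summit, was 35.0 in members, 41.0 in regions new at both times and 96.0 in regions of all 3 lists. Scaled to the depth of the DMSO list, the median member would have had a pileup of 55.6, more than 15.9% of the DMSO regions had. At the depth of the 30 h list it would have had 44.9, more than 14.1% of the 30 h regions. At the lowest background of the DMSO list, 689 members (89.5%) would have passed a -log10 p of 31.3, which is the 10th percentile of DMSO regions. For the 30 h list, with a 10th percentile of 27.8, the number was 612 (79.5%). Members had the lowest such share of any class. Regions new at both times passed in 95.8% (DMSO) and 91.6% (30 h), and those shared with DMSO alone in 94.6% and 88.4%. Regions of all 3 lists passed in 99.4% and 98.9%. With each member's own background scaled to the other list the numbers of members were 626 (81.3%) and 536 (69.6%), and with the median background of the other list's regions 271 (35.2%) and 248 (32.2%). In these settings too members had the lowest share of any class. The 10th percentile was not a limit for entry, as called regions went down to a -log10 p of 2.07 in DMSO and 2.12 at 30 h. At the lowest background all 770 members passed those values, as did 100% of each other class. The shares therefore do not show whether a member would have been listed. The scaled values assume the caller's default formulas and that the lowest background follows depth. Since members were picked for a call in the 6 h list and for the lack of one in the others, the scaled values describe the members and do not measure a difference between treatments.

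The 10 members with the highest -log10 q lay between 60.9 and 186, all at a score of 1000, and 4 of them were on chromosome 13. The first was a region with 3 summits at chr2:151319594-151320481, with a -log10 q of 186, a fold enrichment of 22.2 and a pileup of 190. Scaled to DMSO depth its pileup was 302, above that of 82.1% of DMSO regions, and the nearest DMSO region was 34.9 kb away. The nearest 30 h region lay 35.5 kb away. The second, at chr13:21939605-21940111, had the highest fold enrichment of any member, 22.7, with a -log10 q of 111 and a DMSO region 6.79 kb away. The third, at chr13:21973581-21974038, had a -log10 q of 92.8 and a 30 h region only 172 bp away, and it was the 1 of these 10 that no longer counted as 6 h-only when regions within 500 bp were taken as overlapping.

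The fourth strongest member, at chr3:96283259-96283838, had a -log10 q of 85.5 and a fold enrichment of 19.8, and the DMSO and 30 h regions nearest to it were 14.6 kb away. Next came chr13:23518326-23519098 and chr13:23613699-23613957, at -log10 q of 77.9 and 77.3. Both had low fold enrichments, 6.10 and 6.96, on high local backgrounds of 29.0 and 22.3. The member at chr15:79905401-79907536 was of another shape. It was 2136 bp wide with 7 summits, a fold enrichment of 6.13, a background of 26.1 and a -log10 q of 71.1. The last 3 of the 10 were chr9:64693117-64693688, chr17:23013324-23013568 and chrX:5958493-5959082, with fold enrichments of 18.9, 19.6 and 17.9 on backgrounds close to the lowest of the list.

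Ranked by fold enrichment, 6 of the 10 highest were the same regions. The other 4 were chr12:91651713-91652396 at 18.0, chr1:179000883-179001325 at 17.6, chr3:90666137-90666909 at 17.1 and chr9:23115472-23115877 at 16.3. These 4 were isolated, with the nearest DMSO region 195, 61.4, 152 and 59.7 kb away in that order.

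Wide members were rare, as in the classes shared with 1 other list: 4 of 770 reached 1000 bp (0.519%, 0.202 to 1.33%), against 0.781% of regions new at both times (0.411 to 1.48%), 1.29% of those shared with DMSO alone (0.754 to 2.19%) and 15.3% of regions in all 3 lists. The widest, at chr1:162969893-162972064, covered 2172 bp with 8 summits at a fold enrichment of 4.83, and resembled the chromosome 15 region above in width, summit number and background (23.0). The others of the 5 widest were chr13:40826070-40827259 with 4 summits and chr18:13105656-13106677 and chr9:33658689-33659656 with 3 each, all with a -log10 q of 27.1 or less.

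Members lay slightly farther from DMSO regions than regions of all 3 lists did. The median distance to the nearest DMSO region was 9508 bp for members and 7905 bp for regions of all 3 lists, and 51.2% of members had one within 10 kb (47.6 to 54.7%). Regions new at both times had one within 10 kb in 53.9% of cases (51.1 to 56.8%), and those shared with DMSO alone in 53.5% (50.4 to 56.5%), counting the nearest DMSO region that they did not overlap. Regions of all 3 lists had another within 10 kb in 57.2% (56.5 to 57.8%). At the far end, 37 members had no DMSO region within 100 kb (4.81%, 3.51 to 6.55%). The share was 5.98% of regions new at both times (4.76 to 7.51%), 4.55% of those shared with DMSO alone (3.43 to 6.02%) and 2.48% of regions in all 3 lists (2.28 to 2.68%).

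**Figure D3:**
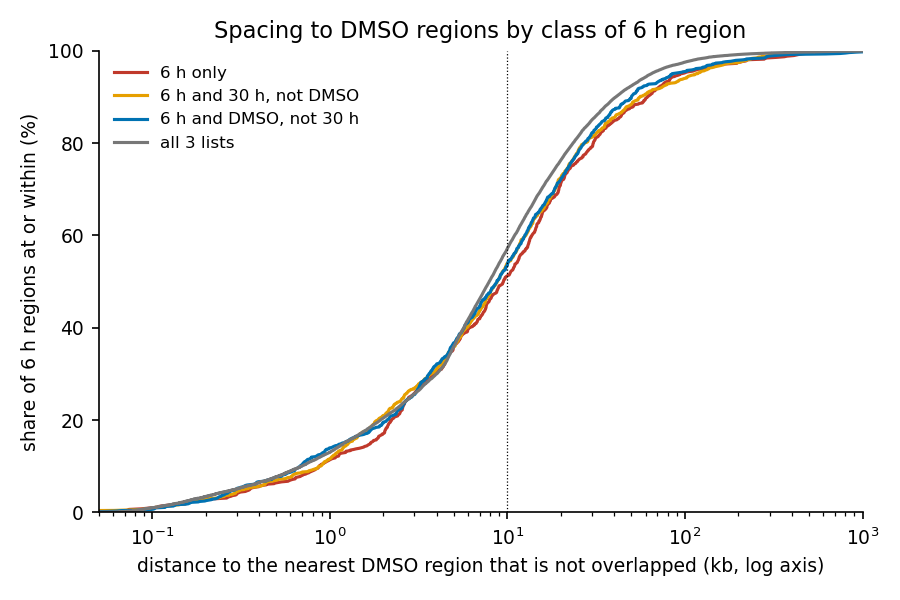
Cumulative share of 6 h regions, by class, with the nearest non-overlapping DMSO region at or within the distance on the log axis, and a dotted line at 10 kb. The 4 curves run close together, and at 10 kb they stand at 51.2% for the 6 h-only class, 53.9% and 53.5% for the classes shared with 1 other list, and 57.2% for regions of all 3 lists.

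The members farthest from either other list were 5 weak regions with 1 summit each. The nearest DMSO region was 745 kb from chr19:49932370-49932843, 728 kb from chr5:18794202-18794479, 519 kb from chr7:113959362-113959593, 424 kb from chr3:114118968-114119498 and 410 kb from chr17:65542765-65543019. Their -log10 q ran from 18.7 to 25.7 and all stood at the lowest background of the list.

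At the edge of the rule, 59 members had a DMSO or 30 h region within 500 bp (7.66%, 5.99 to 9.76%). The closest was chr9:122088802-122089131, 9 bp from a DMSO region, followed by chr13:24187920-24188273, 27 bp from a 30 h region. Then came chr15:102301304-102301876 at 50 bp, chr3:81286837-81287017 at 71 bp and chr1:159805802-159805964 at 74 bp, each from a DMSO region. Just outside the rule, other 6 h regions were ranked by the larger of their overlaps with the DMSO and 30 h lists. The smallest was 19 bp, at chr11:87436430-87436579 with a DMSO region. It was followed by overlaps of at most 48, 55, 55 and 71 bp at chr11:75500687-75500897, chr7:30568563-30568712, chr19:29049579-29049796 and chr7:36126042-36126207. These 5 had -log10 q from 0.848 to 2.08, and the 5 closest members from 1.34 to 20.5.

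The DMSO regions beside members were called again at 30 h in a larger share than those beside other 6 h regions. Of the 394 members with a DMSO region within 10 kb, the nearest such region had no 30 h region in 69 cases, 17.5% (14.1 to 21.6%). The share was 25.2% beside regions new at both times (22.0 to 28.8%), 29.3% beside those shared with DMSO alone (25.6 to 33.2%) and 24.1% beside regions of all 3 lists (23.4 to 24.9%). Over all DMSO regions it was 26.1%. For 6 h the shares were 37.6% beside members (32.9 to 42.4%), 42.6% beside regions new at both times (38.8 to 46.5%), 45.7% beside those shared with DMSO alone (247 of 540) and 43.9% beside regions of all 3 lists (43.1 to 44.8%), against 43.6% of all DMSO regions. The interval for members at 30 h did not meet those of the other classes, while at 6 h it met those of both classes shared with 1 other list. Both replicates are pooled in each list, so no test was made. Of the 394 neighbours, 387 were distinct regions.

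Split by both treated lists, the neighbour of a member was called at 6 h and at 30 h in 60.2% of cases (55.2 to 64.9%), against 54.0% beside regions new at both times (50.1 to 57.9%) and 53.9% beside regions of all 3 lists (53.0 to 54.7%). It was called in neither treated list in 15.2% (12.0 to 19.1%), against 21.9% beside regions new at both times (18.8 to 25.3%) and 21.9% beside regions of all 3 lists (21.2 to 22.6%). It was called at 30 h but not at 6 h in 22.3% (18.5 to 26.7%), against 20.7% beside regions new at both times (17.7 to 24.1%) and 22.0% beside regions of all 3 lists (21.3 to 22.7%). The interval for members met that of regions new at both times in all 3 of these shares. It was apart from that of regions in all 3 lists for neighbours called in both treated lists or in neither.

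The neighbours of members were also somewhat stronger, with a median -log10 q of 96.4 in the DMSO list, against 86.5 beside regions new at both times and 86.9 beside regions of all 3 lists. The shares were also taken within terciles of -log10 q of the DMSO list. Beside members these held 116, 136 and 142 neighbours, from the weakest tercile to the strongest. With so few, intervals that meet do not show how far strength bears on the share, which was not tested. Among neighbours in the weakest tercile, 40.5% had no 30 h region beside members (32.0 to 49.6%), 52.6% beside regions new at both times (45.9 to 59.2%) and 49.7% beside regions of all 3 lists (48.3 to 51.2%), and the interval for members met both others. In the middle tercile the shares were 14.7% (9.73 to 21.6%), 20.1% (15.3 to 26.0%) and 18.0% (16.9 to 19.1%) in the same order, and the interval for members met both others. In the strongest tercile the shares were 1.41%, 1.52% and 2.59% in the same order, and their intervals met. At a limit of 50 kb the neighbours without a 30 h region were 135 of 675 beside members (17.2 to 23.2%), 24.5% beside regions new at both times (22.0 to 27.3%) and 23.9% beside regions of all 3 lists (23.4 to 24.5%), so that the intervals for members and for regions new at both times met. Without the stretch of chromosome 13 described below, the shares within 10 kb were 18.2% beside members (14.6 to 22.3%), 25.5% beside regions new at both times (22.2 to 29.1%) and 24.2% beside regions of all 3 lists (3168 of 13075). There too the intervals for members and for regions new at both times met, as they did within the weakest 2 deciles of -log10 q, at 19.1% (15.2 to 23.7%) and 27.1% (22.9 to 31.8%). The share beside members was thus the lowest in each of these splits by distance, strength of the neighbour, strength of the member and stretch. Of these sets, and the undivided set within 10 kb, its interval was apart from that of the regions new at both times only in the undivided set.

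**Figure D4:**
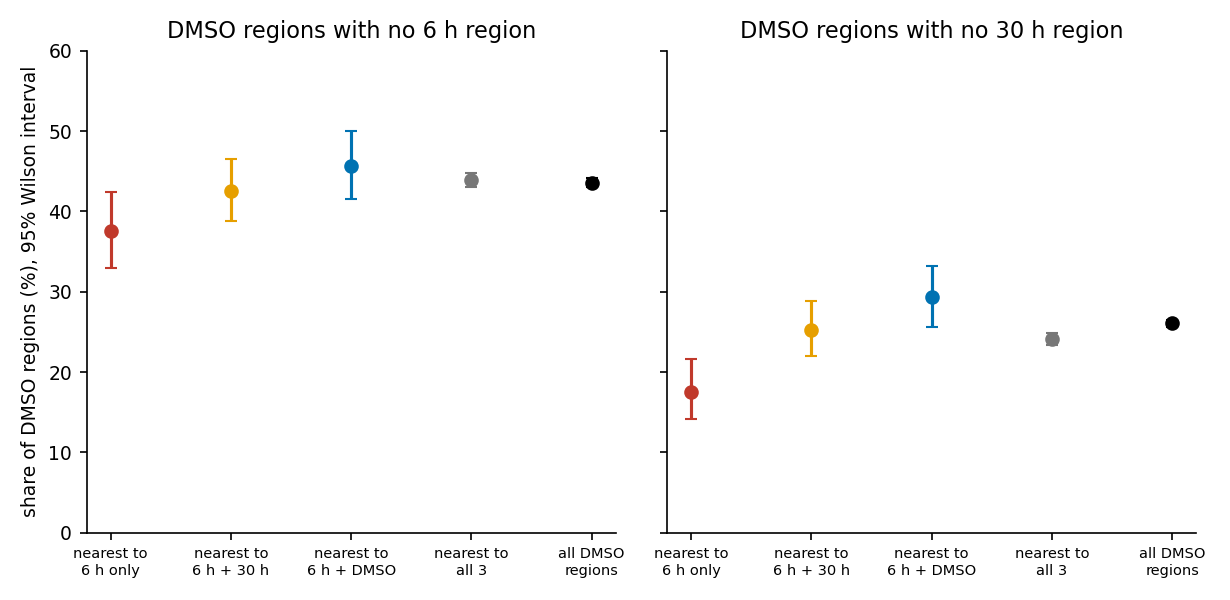
Points give the share of DMSO regions with no 6 h region (left) or no 30 h region (right), with 95% Wilson intervals, for the nearest DMSO region within 10 kb of each class of 6 h region and for all DMSO regions. Neighbours of the 6 h-only class have the lowest point in both panels, 37.6% and 17.5%.

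Neighbouring calls in the 6 h and 30 h lists were also sorted by whether they lacked a DMSO region. Among members with another 6 h region within 10 kb, that region itself lacked a DMSO region in 38 of 321 cases, 11.8% (8.75 to 15.8%). The share was 12.1% for regions new at both times (9.51 to 15.3%), 7.75% for those shared with DMSO alone (5.51 to 10.8%) and 7.18% for those in all 3 lists (6.68 to 7.70%). The interval for members met those of both classes shared with 1 other list and lay above that of regions in all 3 lists. For the nearest 30 h region, a lack of a DMSO region was seen in 14.6% beside members (11.4 to 18.4%), 21.0% beside regions new at both times (18.0 to 24.4%), 17.8% beside those shared with DMSO alone (14.7 to 21.4%) and 16.0% beside regions of all 3 lists (15.4 to 16.7%), so members had the lowest share and its interval met the others. Over the whole lists, the share without a DMSO region was 7.42% at 6 h and 17.9% at 30 h.

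Members were mostly scattered. The median distance from 1 member to the next was 641 kb, and 69 members had another within 50 kb (8.96%, 7.14 to 11.2%). They fell into 591 windows of 1 Mb, of the 2192 that held any 6 h region, and 449 of these windows held 1 member. By chromosome the share of 6 h regions that were members ran from 2.06% on chromosome 12 (1.29 to 3.27%) to 3.53% on chromosome 16 (2.50 to 4.96%). The interval of each of the 20 chromosomes held the genome-wide share of 2.97%.

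The windows with the highest number of members lay side by side on chromosome 13. The 3 windows with the most members were adjacent there, from 21000001 to 24000000, and held 16 members among 120 6 h regions, 13.3% (8.38 to 20.6%). The window from 22000001 to 23000000 had 6 of 24, the highest share among the 417 windows with at least 20 6 h regions, where the median was 3.23%. The window before it had 5 of 39 (12.8%), which was rank 6 by share, and the window after it 5 of 57 (8.77%), rank 32, so by share these neighbours did not stand out singly. In the same stretch 11 further regions were new at both times, so 22.5% of its 6 h regions lacked a DMSO region (15.9 to 30.8%), against 7.42% in the whole list. Among its 30 h regions 13.6% lacked a DMSO region (8.52 to 20.9%), against 17.9% in the whole 30 h list. The stretch held 120 regions at 6 h, 118 at 30 h and 111 in DMSO, although the 6 h list as a whole was the shortest. Of its DMSO regions 18.0% had no 6 h region (12.0 to 26.2%), against 43.6% of all DMSO regions, and 9.91% had no 30 h region (5.62 to 16.9%), against 26.1% of all DMSO regions. The stretch was singled out by its number of members, so these shares are descriptions.

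The 16 members of the stretch fell into 3 runs, taking a gap of over 200 kb as a break. The first held 2 regions, from 21259417 to 21341326. The next held 9 within 149 kb, from 21939605 to 22088710, and the last held 5 within 125 kb, from 23488891 to 23613957. As a group they were stronger than members elsewhere by -log10 q, with a median of 41.0 and a lowest value of 22.5, against a median of 23.3 elsewhere, and 6 of the 18 members with a -log10 q of at least 50 were among them. By fold enrichment they were lower, with a median of 6.62 against 9.29 elsewhere. Their local background had a median of 8.56, from 2.83 to 31.8, and 7 of the 16 stood on a background of at least 10. The other 6 h regions of the stretch had a median background of 15.9, against 5.87 for the 6 h list. High background there was not particular to 6 h. In the stretch it was 13.9 in the DMSO list and 14.8 in the 30 h list, against list medians of 9.17 and 6.99. In the run of 9, 5 members lay between chr13:22008864-22009163 and chr13:22085785-22086292, with -log10 q of 41.2, 38.9, 26.2, 29.9 and 40.8. Mouse chromosome 13 carries the large Hist1 cluster of replication-dependent histone genes, but where it lies relative to these regions was not determined here.

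**Figure D5:**
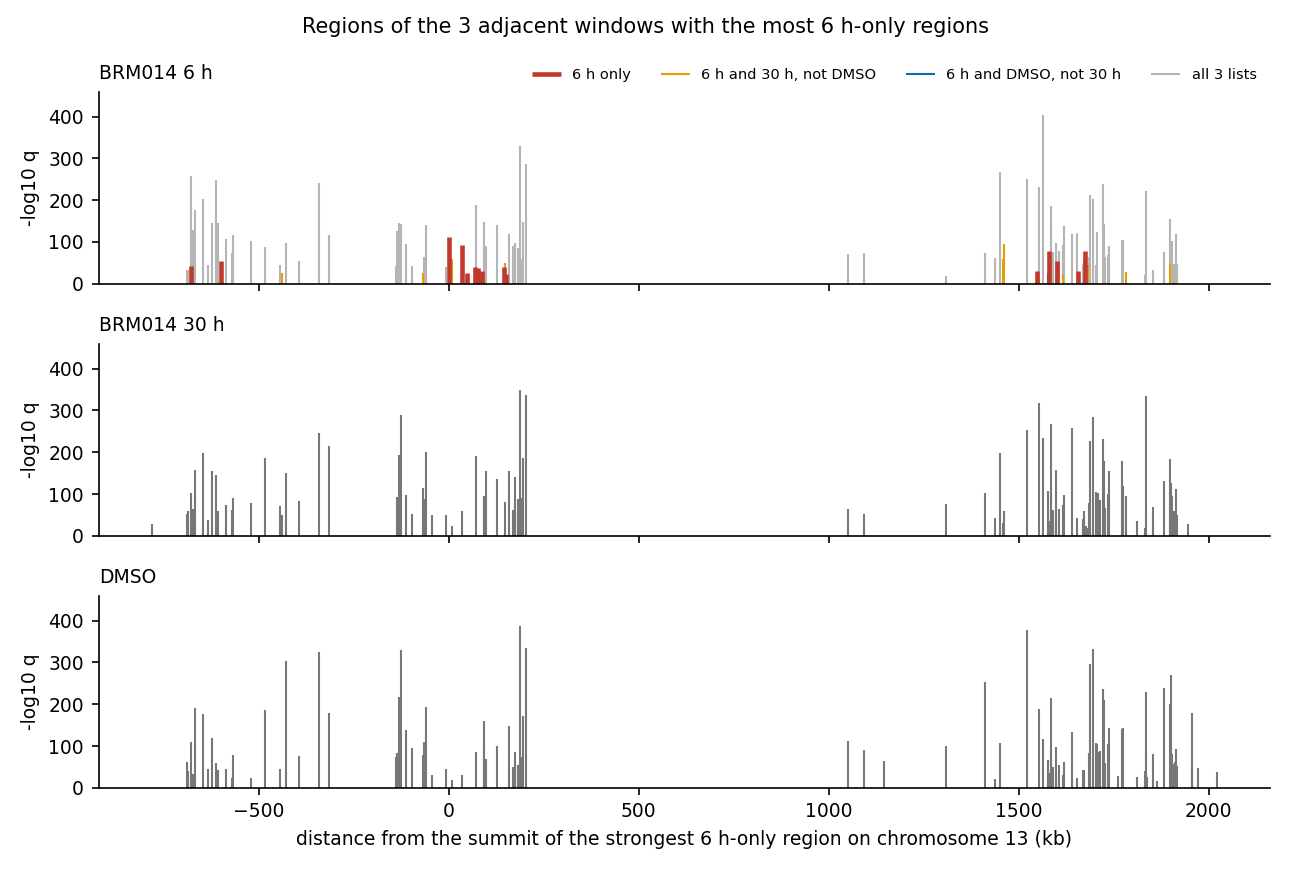
Vertical lines stand at the summits of the regions of the 3 lists in the 3 adjacent windows on chromosome 13, with height giving -log10 q in its own list and the horizontal axis giving distance in kb from the summit of the strongest 6 h-only region there. The 16 members, in red, form runs of 2, 9 and 5 regions among regions called in all 3 lists. Heights are not comparable between lists, which differ in depth.

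The 3 windows next in rank held 4 members each. They were chr11:95000001-96000000 with 4 of 31 6 h regions (12.9%) and chr11:97000001-98000000 with 4 of 39 (10.3%). In chr15:78000001-79000000 there were 4 of 52 (7.69%). Their members' median backgrounds were 2.58, 4.67 and 4.97. In the 2 windows of chromosome 11 no region was new at both times, and 2 and 8 regions were peculiar to the 30 h list.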

How the data were processed

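ATAC-seq peak lists of 3 groups (BRM014 6 h, BRM014 30 h and DMSO, 2 samples each) were used as deposited, with 1 list per group from both replicates together, per the series' design text. Per the submitters' processing notes, peaks were called with MACS2 2.1.2 and placed on mm9. Which aligner, read filters, transposase shift and caller options were used is not given in the sources used here, and a missing transposase shift would move region edges and summits by a few bases. Gene and promoter tables at hand are of GRCm38, whose last gene on chromosome 7 ends at 145324059 while the lists reach 152516732, so they were not used. The deposited score runs from 540 to 1000 in each list, and the sources used here do not state what it measures. The deposited fold enrichment is a ratio to local background, and the deposited -log10 p and -log10 q are the authors' too, as is the summit offset.

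Entries that overlap were merged, keeping the highest value of each measure. Pileup and background were solved from fold enrichment and -log10 p under the caller's default formulas, matching within 0.001 for 100% of entries. Merging, overlap and pileup steps were tested on simulated data. The members, comparisons and rules were chosen with earlier results of these data known. The regions named are the 10 members highest by -log10 q, the 10 highest by fold enrichment, the 5 widest, the 5 with most summits, the 5 nearest to and the 5 farthest from another list, the 5 closest pairs, the 5 windows with most members (with 1 more tied with the fifth), and the 5 other 6 h regions with the smallest overlap (the larger of their DMSO and 30 h overlaps). Other members of the 3 adjacent windows, and the member with the lowest -log10 q, were named after their values were seen. Alternatives covered the overlap rule, list thresholds, merging, distance limits, weighting and the background assumed. Python 3.11.15, numpy 2.4.6, pandas 2.3.3, scipy 1.17.1 and matplotlib 3.10.9 were used.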

Additional observations from a re-analysis of the deposited data

How the results depend on the processing

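Of 85 values under an alternative, 47 stayed within the 95% interval of the reported value and 38 moved beyond it. The summit rule and the removal of the 3 windows on chromosome 13 moved none. The weakest 2 deciles, the removal of windows and the scaled own background were chosen after seeing the data. With an overlap of at least 50% members were 3.28% of 6 h regions, 74.7% had 1 summit, and the lists' own shares were 15.5% at 30 h and 25.7% in DMSO. With regions within 500 bp shared these were 2.74%, 14.0% and 22.2%, and 47.4% of members had a DMSO region within 10 kb. With a score of 1000 in the list counted, members were 0.182%, their median -log10 q 51.2, those with 1 summit 74.1%, their neighbours without a 6 h region 23.1% (3 of 13) and without a 30 h region 0% (0 of 13, Wilson limits 0 to 22.8%), and the own shares 2.91% and 12.3%. With lists of equal length members were 12.0%, their median -log10 q 25.9, those with 1 summit 70.2%, those near a DMSO region 41.2%, neighbours without a 6 h region 20.4%, members within 50 kb of another 26.7%, and the own shares 9.13% and 14.9% (this shortens only the 30 h and DMSO lists). With every entry counted members were 1.98%, at a median of 21.0, 100% with 1 summit by construction, and the own shares 10.7% and 18.7%. A -log10 q minimum of 5 gave 88.7% with 1 summit, and equal weights over the 4 deciles with enough members 76.8%. By that weighting regions new at both times had 74.7% (6 deciles) and those shared with DMSO alone 69.1% (5 deciles). Regions of all 3 lists had 43.4% (10 deciles). Limits of 50 kb for DMSO neighbours and 10 kb for members gave 87.7% and 3.90%. The weakest 2 deciles had a median -log10 q of 21.7, and the weakest decile of fold enrichment 7.37% members. Of members, 35.2% (DMSO) and 32.2% (30 h) passed the 10th percentile at the median background, and 81.3% and 69.6% at their own, against 89.5% and 79.5%. Where construction does not show it, the cause was not tested. When regions within 500 bp counted as shared, 711 of the 770 members stayed; under the 50% and summit rules all stay by construction.

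No paired analysis was possible because the deposited lists hold both replicates of a group together. Leaving out single replicates could not be done either. The part of depth in which regions were called was not tested.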

Other observations

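At the low end, 12 members had a -log10 q under 5, between 0.334 and 3.17, and the next member stood at 6.86. All 12 had 1 summit, widths of 150 to 330 bp and pileups of 7 to 32. Of these, 11 lay within 500 bp of another 6 h region and 9 within 500 bp of a DMSO or 30 h region. Their deposited scores ran from 546 to 1000, and 4 of them had the highest score of 1000. The member with the lowest -log10 q, chr16:17508296-17508445 at 0.334 with a fold enrichment of 1.71, was among those at 1000, and lay 156 bp from a DMSO region.

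The 5 closest pairs of members were 82 to 152 bp apart. In 4 of them a member of ordinary strength had a much weaker one beside it. On chromosome 15 the region starting at 100168366 had a -log10 q of 21.4, and the one starting at 100168131 had 3.17. On chromosome 3 the values were 20.3 for the start at 81285987 and 1.34 for 81286837. For chromosome 9 they were 24.0 at 30747957 and 0.592 at 30747716. A second pair on chromosome 15 had 24.5 at 71380223 and 2.09 at 71380918. The remaining pair, on chromosome 6, was of 2 similar regions, with 24.6 at 135019749 and 31.1 at 135020431.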
